A study of Mus musculus with 2 samples.

Results

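Ion channel genes were described in RNA-seq of mouse pancreatic islets, the endocrine micro-organs of the pancreas, from a Brsk2 over-expression line and from wild type. Brsk2 is a protein kinase related to AMPK. The set held the protein-coding genes of the count table whose names begin with Kcn or Cacn, or are those of sodium channel subunits (Scn), HCN channels and TRPC, TRPM or TRPV channels, without Trpm5. Of 158 such genes among 54532 genes in the table, 116 reached 10 reads in the sum of the libraries and were measured. They were grouped by ion into 68 potassium, 21 calcium, 11 sodium and 16 mixed cation genes. The other 42 had 9 reads or fewer, and 19 of them had no read in either library. Just inside the minimum stood Trpc6, with 5 reads in each library, and just outside it Kcnj14, with 5 in the transgenic and 4 in the wild-type library.

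There was 1 library from the Brsk2 transgenic line, labelled Line20, and 1 from wild type. Both came from male C57BL/6 mice, labelled 10 to 12 weeks old. Doxycycline, an inducer of conditional transgenes, was given to both groups in the drinking water during 4 days, from an age of 8 to 10 weeks. The sources used here do not give the promoter of the transgene, any part of an inducible system in wild-type mice, or whether mice were pooled, and 1 line cannot tell the transgene from its insertion site. No spread between animals was measured, so no difference below has a replicate check and no test between groups was made. The transgenic library held 16832312 reads and the wild-type library 20389499. Ratios divide the transgenic by the wild-type CPM, the reads per 1000000 of scaled library size, with a 95% interval in brackets that covers counting error only. Levels are compared between genes as RPKM, CPM per kilobase of gene length, whose intervals also cover counting error only. A call, higher or lower, needed a ratio beyond 1.5-fold and an interval without 1 in it.

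Brsk2 stood at 94.3 CPM in the transgenic library and 36.4 CPM in the wild-type library, a ratio of 2.59 [2.37, 2.83]. The islet hormone transcripts were high in both libraries, with Ins2 at 159492 CPM in the transgenic and 199302 CPM in the wild-type library. Marker genes of the cell types differed between the libraries. The 11 beta cell markers summed to 194851 CPM in the transgenic and 255968 CPM in the wild-type library, with 7 called lower. The 9 alpha cell markers summed to 31191 and 19636 CPM in the same order of libraries, with 5 called higher, and the 18 acinar markers to 59078 and 13273 CPM, with 17 called higher and 1 lower. The 7 delta and gamma cell markers summed to 8675 CPM in the transgenic and 5808 CPM in the wild-type library, with 1 called higher. Of 10 fibroblast and mural markers 5 were higher and 1 lower, of 9 immune markers 2 were higher and 1 lower, of 9 Schwann and neural markers 2 were higher and 2 lower, of 8 duct markers 3 were higher, and no endothelial marker of 8 was called. Every one of these markers that was measured had reads in both libraries. In bulk RNA, fewer cells of a type and less RNA per cell cannot be told apart, and the part of these shifts in the channel values was not tested.

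Beta cells fire action potentials when glucose metabolism closes the ATP-sensitive potassium (KATP) channel and the membrane depolarises. Sodium and calcium channels then open, calcium entry triggers insulin release, and voltage-gated and calcium-activated potassium channels repolarise the membrane. Alpha and delta cells use an overlapping set of channels to control glucagon and somatostatin release. HCN and TRP channels carry mixed cation currents that move the resting membrane toward threshold.

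Most abundant channel genes of the islet were not called, as held for most abundant genes of any kind, and they lay mostly slightly below wild type. Apart from Hcn3, with rank 9 of the set by RPKM in wild type, the called genes lay lower in level. Of the 116 measured genes, 11 were called higher, where the rule called 7.78% of all 17709 measured genes, and 12 were called lower, against 5.89% of all. Of protein-coding genes alone it called 7.07% higher and 5.51% lower. At 2-fold, 7 were higher (4.26% of all genes) and 10 lower (2.53% of all genes). The 68 potassium genes held 9 of the higher and 10 of the lower calls, and the 11 sodium genes 2 higher. The 21 calcium and the 16 mixed cation genes held 1 lower each. The median log2 ratio was -0.12 over all 116, against 0.01 over all measured genes. By ion it was -0.12 for potassium, -0.15 for calcium, 0.43 for sodium and -0.26 for mixed cations.

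Among the 10 channel genes with the highest RPKM averaged over both libraries, none was called and ratios ran from 0.695 to 1.03, and of the top 20 by that mean only Hcn3 was called. In each library alone, Hcn3 ranked 17 in the transgenic and 9 in the wild-type library. Of the 31 channel genes with at least 500 reads 28 were not called, as were 7667 of all 8315 genes at that depth. Against 57.4% of all genes with 500 reads or more, 26 of the 31 channel genes at that depth had a ratio below 1. The interval lay wholly below 1 for 21 of them, against 36.1% of all genes with at least 500 reads, and wholly above 1 for 2, against 22.4% of all such genes. Their median log2 ratio was -0.23, and that of all genes with at least 500 reads was -0.04. The summed level of the 116 genes was 446 RPKM in the transgenic and 517 RPKM in the wild-type library. Among the 60 channel genes with at least 100 reads, 6 were called higher (5.67% of all such genes) and 8 lower (5.66% of all such genes). Among the 56 with 10 to 99 reads, 5 were called higher (12.3% of all such genes) and 4 lower (6.38% of all such genes).

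**Figure D1:**
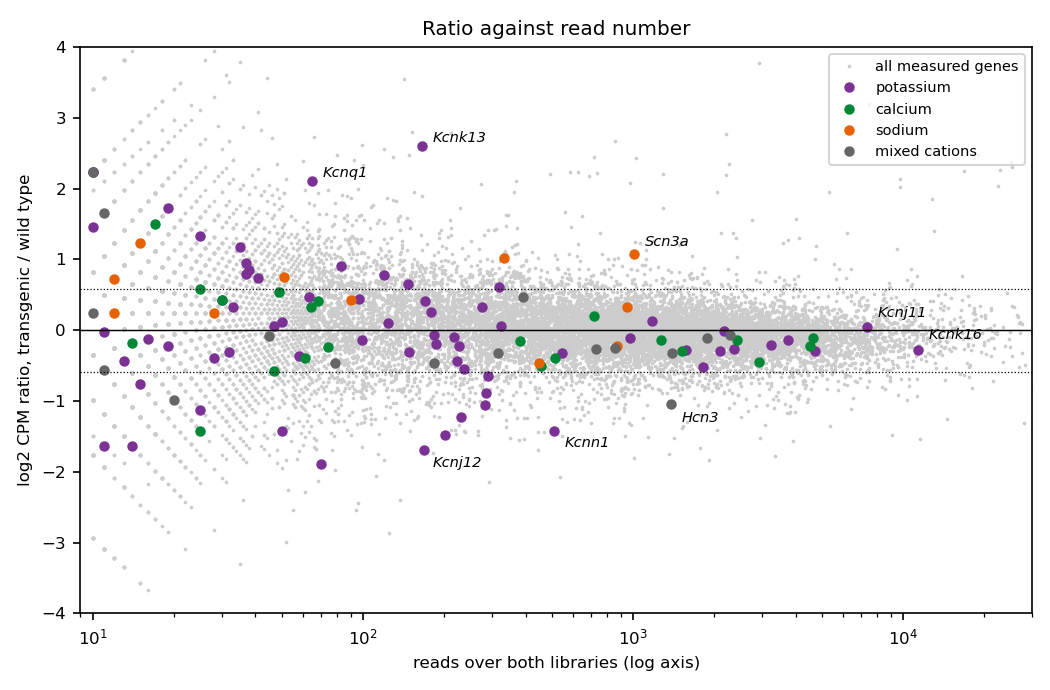
The log2 CPM ratio (transgenic over wild type, vertical axis) is plotted against reads over both libraries (horizontal log axis) for all measured genes in grey and for the channel genes coloured by ion. Dotted lines mark 1.5-fold, and the most abundant genes and the most extreme ratios lie outside the frame. Channel genes with many reads sit close under the zero line, and of the 23 called ones only Hcn3, Scn3a and Kcnn1 have 500 reads or more.

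Promoter windows from RefSeq (GRCm38.p6, 250 bases before to 50 after the annotated start) were found for 88 of the 116 genes, 122 windows in all. Windows are shown for 4 called genes from a hand-picked list, each with at least 100 reads and a RefSeq start at the start in the count table. Of these, 1 was called higher and 3 lower, a split set by that choice. Capitals mark the GC box GGGCGG on either strand, a common element of CpG-rich promoters. Kcnk13 is the gene with the highest ratio of the set, and Kcnn1, Kcng3 and Kcnmb1 are among the lower ones.
Kcnk13 (chr12:99964249-99964548, plus strand): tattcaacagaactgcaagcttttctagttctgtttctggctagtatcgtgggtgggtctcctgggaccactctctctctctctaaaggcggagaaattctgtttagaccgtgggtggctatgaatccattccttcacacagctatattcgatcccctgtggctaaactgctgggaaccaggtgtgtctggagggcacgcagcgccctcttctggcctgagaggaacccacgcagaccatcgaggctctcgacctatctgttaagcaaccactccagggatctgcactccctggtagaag
Kcnn1 (chr8:70863209-70863508, minus strand): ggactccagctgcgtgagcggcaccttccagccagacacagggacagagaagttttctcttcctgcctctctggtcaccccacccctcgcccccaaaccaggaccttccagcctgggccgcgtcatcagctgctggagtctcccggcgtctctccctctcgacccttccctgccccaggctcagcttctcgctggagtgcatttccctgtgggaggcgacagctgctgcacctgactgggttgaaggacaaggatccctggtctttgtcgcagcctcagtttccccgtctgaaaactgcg
Kcng3 (chr17:83631846-83632145, minus strand): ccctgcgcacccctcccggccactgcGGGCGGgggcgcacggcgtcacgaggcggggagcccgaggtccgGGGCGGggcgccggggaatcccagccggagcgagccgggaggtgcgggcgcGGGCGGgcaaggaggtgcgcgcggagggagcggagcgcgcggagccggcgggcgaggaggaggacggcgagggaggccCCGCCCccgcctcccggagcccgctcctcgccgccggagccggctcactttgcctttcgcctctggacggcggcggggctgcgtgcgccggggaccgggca
Kcnmb1 (chr11:33962763-33963062, plus strand): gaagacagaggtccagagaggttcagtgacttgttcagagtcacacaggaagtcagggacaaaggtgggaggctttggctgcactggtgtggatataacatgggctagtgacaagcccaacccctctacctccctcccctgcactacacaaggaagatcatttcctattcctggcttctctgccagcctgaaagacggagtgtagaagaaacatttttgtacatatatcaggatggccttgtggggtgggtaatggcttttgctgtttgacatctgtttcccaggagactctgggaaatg
The window of Kcng3 held 49 CpG dinucleotides and 4 GC boxes, while those of Kcnn1, Kcnk13 and Kcnmb1 held 13, 9 and 1 CpG and no GC box. A second RefSeq window of Kcnn1, at another start and not shown, held 16 CpG and 2 GC boxes. A GC box stood in 45.9% of the 122 channel windows, in 4 of the 12 windows of genes called higher, in 5 of the 12 of genes called lower and in 35.7% of all 32851 windows of the table. The core of the cAMP response element, TGACG, searched on both strands, stood in 20.5% of channel windows and 20.8% of all windows. The full element TGACGTCA, which contains that core, was in no channel window and in 1.79% of all. The E-box CACGTG was in 6.56% of channel windows and 7.15% of all.

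The channels that set the resting potential of beta cells were the most abundant of the set, and both KATP subunits were close to wild type. Kcnk16, a 2-pore-domain background potassium channel of islets, had 4671 reads and 115 RPKM in the transgenic library, against 6677 reads and 139.6 RPKM in the wild-type library, a ratio of 0.825 [0.795, 0.857]. It made up 25.8% of the summed RPKM of all channel genes in the transgenic and 27.0% in the wild-type library. Kcnj11, the pore subunit of the KATP channel, had 3429 reads and 54.7 RPKM in the transgenic library, against 3933 reads and 53.2 RPKM in wild type, a ratio of 1.03 [0.982, 1.08]. Abcc8, the sulfonylurea receptor that surrounds this pore and is named outside the set, had a ratio of 1.06 [1.04, 1.09]. Of the 11 beta cell markers, 7 were called lower, and 9 had a ratio below 1 and 2 above. Those above were Nkx6-1 at 1.37 [1.31, 1.43] and Pdx1 at 1.05 [0.981, 1.13].

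Of the 10 measured 2-pore-domain genes, 1 was called higher and none lower, with a median log2 ratio of -0.21. Kcnk1 was at 16.9 RPKM in the transgenic and 20.6 RPKM in the wild-type library (0.820 [0.741, 0.908]), and Kcnk3, an acid-sensitive background channel, at 9.95 and 14.3 RPKM in that order (0.695 [0.631, 0.765]). Kcnk3 stopped just short of 1.5-fold, and Kcnk12, a channel usually silent by itself, was at 0.797 [0.669, 0.948].
Kcnk13, a halothane-inhibited background channel (ENSMUSG00000045404, chromosome 12, 99964499 to 100062682, plus strand), went the other way. It had 139 reads and 2.62 RPKM in the transgenic library, against 27 reads and 0.431 RPKM in wild type, a ratio of 6.07 [4.00, 9.54]. Its rank by RPKM among potassium genes was 15 in the transgenic library and 37 in wild type. Kcnk13 was the 1 gene of the set among 108 in the authors' deposited table of listed genes, which gives it a log2 fold change of 2.60. None of its exons overlapped another annotated gene.

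Among the 9 measured inward rectifiers, the KATP pore included, low-level members moved in both directions. Kcnj12, a strong inward rectifier known from muscle and neurons, had 35 reads in the transgenic library against 134 in wild type, 0.746 and 2.42 RPKM, a ratio of 0.308 [0.206, 0.450]. Its close relative Kcnj2 had 51 reads in the transgenic and 32 in the wild-type library, a ratio of 1.88 [1.19, 3.02]. Kcnj12 was the second inward rectifier by RPKM in wild type, and Kcnj4 held that place in the transgenic library at 0.926 RPKM from 34 reads. Its RPKM interval there overlapped that of Kcnj12. Kcnj6, a G protein-gated channel, was at 0.871 [0.643, 1.18]. The family's median log2 ratio was 0.04.

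**Figure D2:**
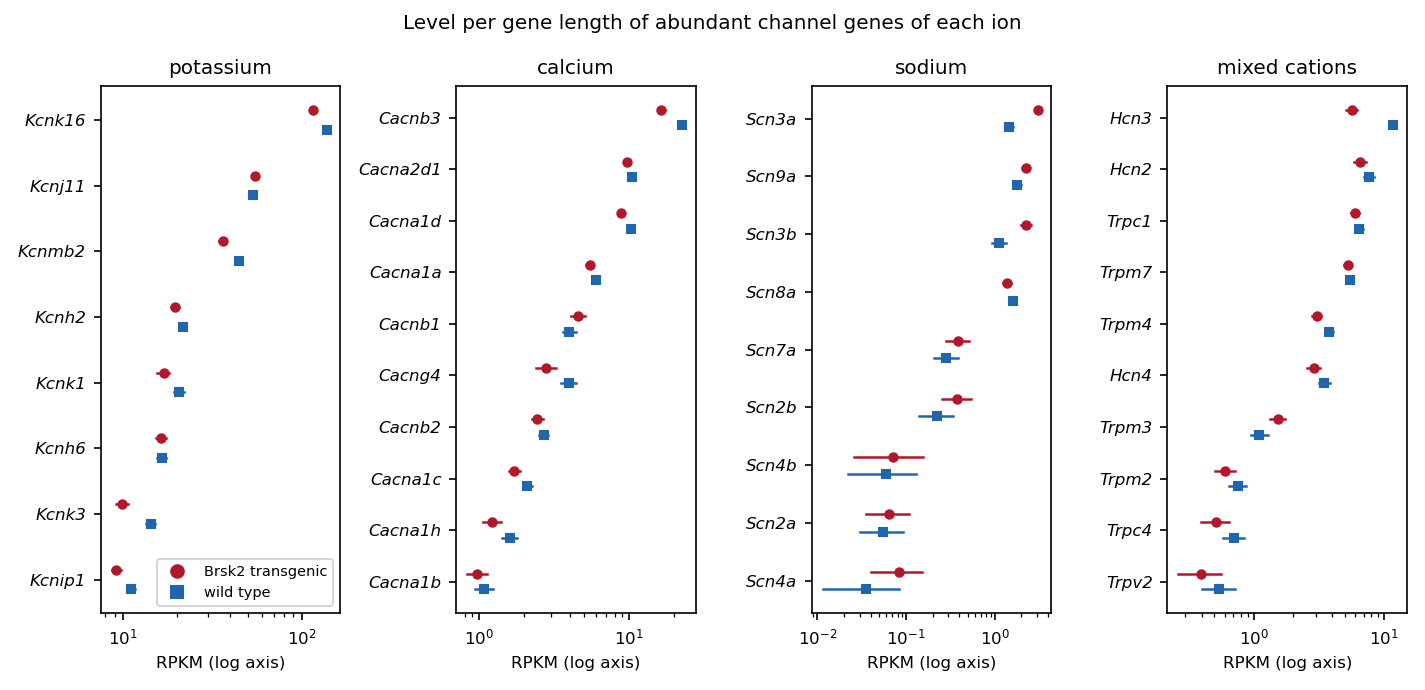
RPKM on log axes is shown for genes among the 10 with the highest mean level of each ion, circles for the transgenic and squares for the wild-type library, with lines for 95% Poisson intervals of the read count. Kcnk16 and Kcnj11 lead at over 50 RPKM, and the transgenic point lies left of the wild-type point in every row shown except Kcnj11, Cacnb1, Trpm3 and all sodium genes but Scn8a.

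The ERG-type channels that help to repolarise beta cells differed little, whereas 2 of the silent modifier subunits were called lower. Kcnh2 and Kcnh6, which encode ERG-type channels, were at 0.906 [0.849, 0.967] and 0.989 [0.908, 1.08]. Kcnh2 was at 19.6 RPKM in the transgenic and 21.7 RPKM in the wild-type library, and Kcnh6 at 16.3 and 16.5 RPKM in that order. They were the highest of 29 measured voltage-gated potassium genes in both libraries, of which 5 were called higher and 4 lower, with a median log2 ratio of -0.21.
Kcng3 encodes a subunit that forms no channel alone and modifies other voltage-gated potassium channels. It had 61 reads in the transgenic library against 169 in wild type, 1.07 and 2.50 RPKM, a ratio of 0.426 [0.312, 0.574]. Kcnf1, another silent modifier of the same kind, had 13 reads in the transgenic library and 57 in wild type, a ratio of 0.269 [0.135, 0.497]. The third measured silent subunit, Kcns3, had 5 and 10 reads in that order, and its interval held 1 [0.158, 1.89].

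Kcnq1, a voltage-gated channel known from heart and from epithelia, had 51 reads in the transgenic library and 14 in wild type, a ratio of 4.30 [2.34, 8.41]. It is also counted below among the channels described for beta cells. The antisense transcript Kcnq1ot1, which shares 121 exon bases with Kcnq1, was at 1.11 [0.951, 1.29]. Kcnq1 was called higher in a library in which 17 of 18 acinar markers and 3 of 8 duct markers were called higher, and their part in its ratio was not tested.
The other voltage-gated genes called higher were of low level. Kcnh7, the third ERG-type gene, had 71 reads in the transgenic library against 49 in wild type (1.71 [1.17, 2.51]), and Kcnc2 had 84 against 63 (1.57 [1.12, 2.22]). Kcnc4 had 23 and 12 reads in that order (2.26 [1.08, 4.99]) and Kcna6 had 14 and 5 (3.30 [1.12, 11.7]). Of the exons of Kcna6, 39.6% overlapped an antisense gene listed with no reads. Kcnh5 had no read in the transgenic library and 11 in wild type. A floor of 3 reads in place of 0 set its ratio at 0.322, which is not a measured bound on the fold. Gca on the other strand shared 4.57% of the exon bases of Kcnh7 and was at 1.16 [1.02, 1.33].

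Potassium channels opened by calcium differed most in the small-conductance (Kcnn) family, where the order of the genes by level changed. Kcnn1 (ENSMUSG00000002908, chromosome 8, 70842049 to 70863258, minus strand) had 123 reads and 1.57 RPKM in the transgenic library, against 388 reads and 4.20 RPKM in wild type, a ratio of 0.374 [0.303, 0.459]. Kcnn2 had 90 reads in the transgenic and 196 in the wild-type library, a ratio of 0.542 [0.417, 0.699]. Kcnn3, the third gene of the family, was at 3.17 RPKM in the transgenic and 2.89 RPKM in the wild-type library (1.10 [0.977, 1.23]). Kcnn1 was thus the highest of the family in wild type, with 47.5% of its summed RPKM against 25.9% in the transgenic library, where Kcnn3 led with 52.3%, against 32.6% in wild type. The transcript A230052G05Rik on the other strand covered 2.88% of the exon bases of Kcnn1 and was itself at 0.605 [0.400, 0.902]. Kcnn4, the intermediate-conductance channel of blood and secretory cells, was at 1.36 [0.897, 2.08]. Kcnma1, the large-conductance channel gated by calcium and voltage, was at 0.926 [0.814, 1.05].

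Accessory subunits of potassium channels held 2 higher and 3 lower calls among 13 measured genes. Kcnmb2, a large-conductance channel subunit that inactivates the pore, was the third most abundant gene of the set in both libraries, at 36.3 RPKM in the transgenic and 44.5 RPKM in the wild-type library (0.816 [0.770, 0.865]). Kcnmb1, its counterpart in smooth muscle, had 82 reads in the transgenic library against 202 in wild type, a ratio of 0.479 [0.366, 0.622]. Kcnmb1 lies within the span of Kcnip1 on chromosome 11, and Kcnip1 was at 0.829 [0.763, 0.900].
The Kcnip genes encode calcium-binding subunits of A-type (Kcnd) channels. Kcnip2 had 47 reads and 0.793 RPKM in the transgenic library, against 154 reads and 2.20 RPKM in wild type, a ratio of 0.360 [0.254, 0.502]. Kcnip4 had 180 reads in the transgenic library against 139 in wild type, a ratio of 1.53 [1.22, 1.92] just past the limit. The gene 5730480H06Rik on the other strand shared 4.63% of the exon bases of Kcnip4 and was at 1.11 [0.882, 1.40]. Kcnip2 ranked second of the 4 Kcnip genes in wild type and last in the transgenic library, while Kcnip1 led in both. The RPKM interval of Kcnip2 in wild type overlapped those of Kcnip4 and Kcnip3.
Kcnd1, the most abundant of the A-type pore genes, was at 0.958 [0.707, 1.29], and Kcnd2 and Kcnd3 had 13 and 37 reads over both libraries. Kcnab1, a subunit that speeds inactivation, had 12 reads in the transgenic library and 38 in wild type (0.372 [0.177, 0.728]), and Kcnrg, a soluble regulator, had 17 and 8 (2.51 [1.03, 6.71]).

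**Figure D3:**
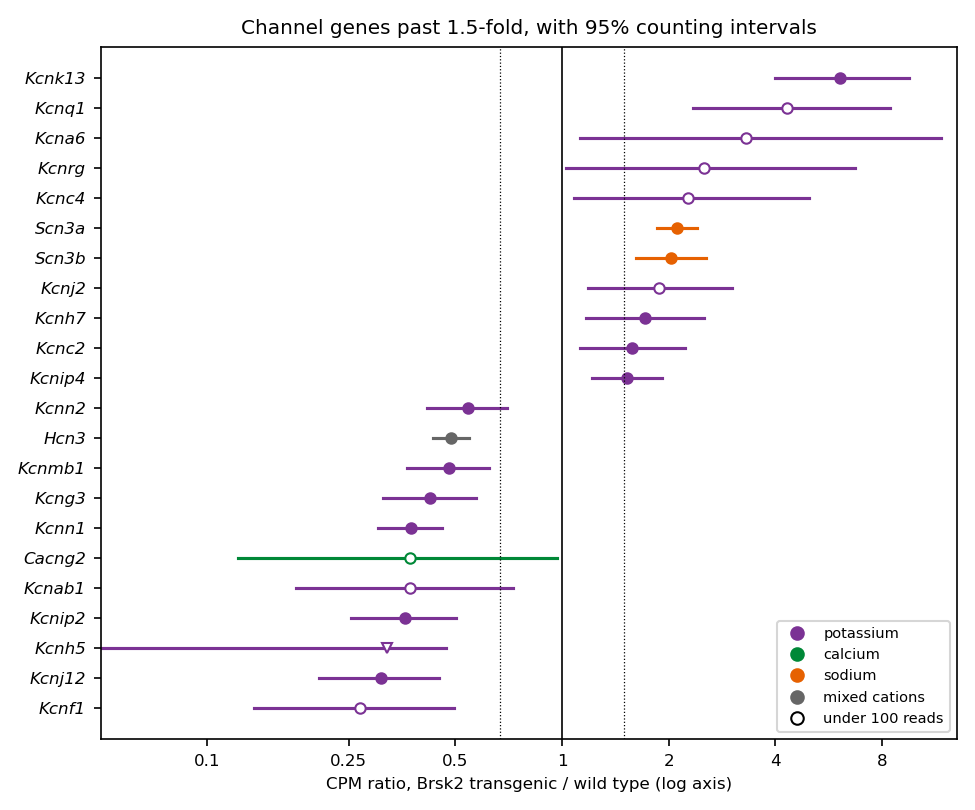
CPM ratios (transgenic over wild type, log axis) of 22 of the 23 called channel genes are shown with 95% counting intervals. Colour gives the ion, open symbols mark genes with under 100 reads, and dotted lines mark 1.5-fold. The triangle of Kcnh5 is set by the floor of 3 reads and is not a measured bound, and its interval runs to 0 beyond the frame. Kcnk13 has the highest ratio at 6.07, Kcnf1 the lowest at 0.269, and the narrowest intervals belong to Hcn3 and Scn3a.

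Sodium channel genes were the 1 ion group with a median above that of all genes, and the order of the pore genes changed. Of 11 measured genes, 9 had a ratio above 1, against 8969 of all 17709 measured genes, and 2 were called higher and none lower. Several of the 9, Scn7a, Scn2a, Scn1a and Scn4b among them, had under 100 reads and intervals that held 1. Of all 5640 genes with 10 to 99 reads, 3238 had a ratio above 1. The group median of 0.43 was the value of Scn7a, with 48 reads in the transgenic and 42 in the wild-type library. The part of read depth in this median was not tested. Scn3a (ENSMUSG00000057182, chromosome 2, 65457118 to 65567627, minus strand), a pore gene of islet cells and of developing neurons, had 647 reads and 3.04 RPKM in the transgenic library, against 362 reads and 1.44 RPKM in wild type, a ratio of 2.11 [1.85, 2.40]. Scn9a, the pore gene best known from sensory neurons and also active in beta cells, was at 2.24 RPKM in the transgenic and 1.79 RPKM in the wild-type library (1.25 [1.10, 1.42]). Scn8a was at 1.37 RPKM in the transgenic and 1.60 RPKM in the wild-type library (0.860 [0.750, 0.986]).
In wild type the levels of these 3 ran Scn9a, Scn8a, Scn3a, and the intervals of neighbours overlapped, with Scn8a at 1.46 to 1.74 RPKM and Scn3a at 1.30 to 1.60. In the transgenic library Scn3a came first and its interval, 2.81 to 3.29 RPKM, did not overlap that of Scn9a, 2.05 to 2.45. Scn3a made up 42.1% of the summed RPKM of the pore genes in the transgenic and 27.6% in the wild-type library.

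Scn3b, a beta subunit, was the other gene called higher, with 211 reads in the transgenic library against 123 in wild type, a ratio of 2.02 [1.61, 2.55]. Scn3a lies in a run of 5 sodium channel genes on chromosome 2 with Scn2a, Scn1a, Scn9a and Scn7a. The ratios of the others were 1.18, 1.65, 1.25 and 1.35 in that order, all above 1, although the intervals of Scn1a, Scn2a and Scn7a held 1 on 12, 28 and 90 reads. In the same libraries the alpha cell hormone gene Gcg was at 1.59 [1.59, 1.60] and the delta cell hormone Sst at 1.31 [1.30, 1.33]. Of the 9 alpha cell markers 8 had a ratio above 1 and 1 below. Of the 7 delta and gamma cell markers 5 were above 1 and 2 below. The part of cell content in the sodium channel ratios was not tested.

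**Figure D4:**
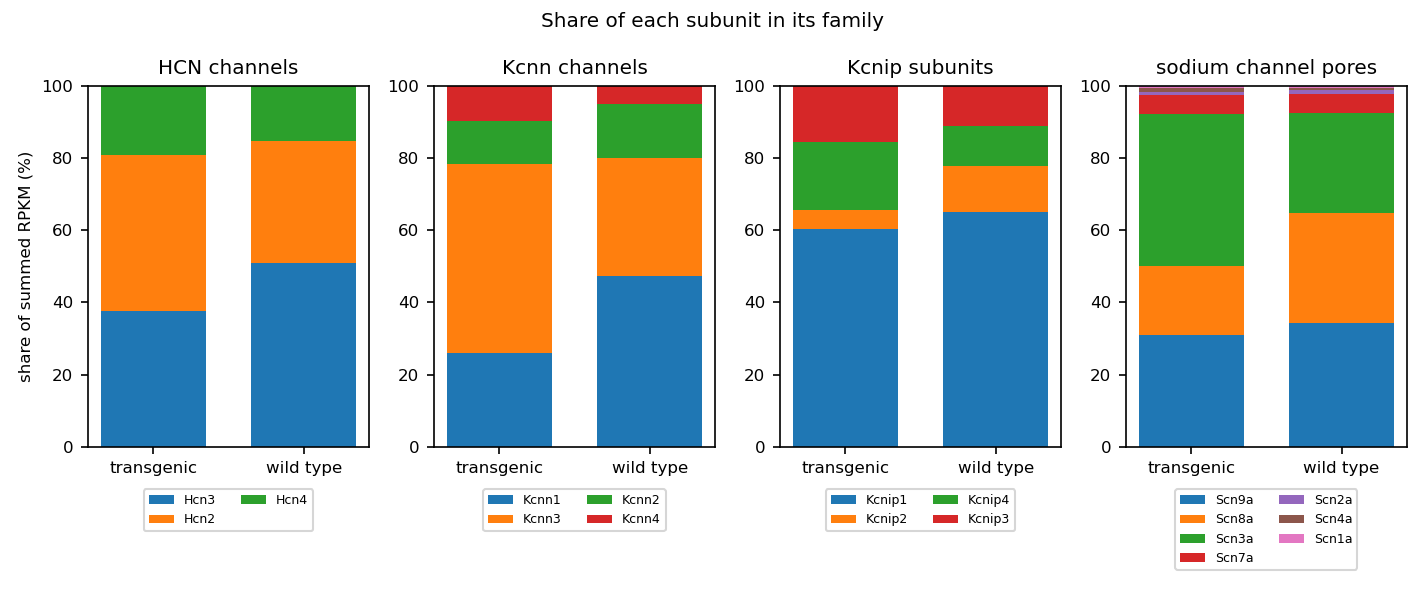
Stacked bars give the share of each gene in the summed RPKM of its family, the transgenic library left of wild type. Hcn3 takes 37.6% of the HCN bar in the transgenic and 50.9% in the wild-type library, Kcnn1 takes 25.9% and 47.5% of the Kcnn bar in that order, and Scn3a takes 42.1% and 27.6% of the sodium pore bar.

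The pore genes of calcium channels lay mostly a little below wild type, and 1 accessory gene was called. Against 49.4% of all measured genes, 8 of 9 measured pore genes had a ratio below 1, and none was called. Cacna1d, an L-type pore gene and the most abundant of them, had 1905 reads and 8.85 RPKM in the transgenic library, against 2629 reads and 10.4 RPKM in wild type, a ratio of 0.855 [0.805, 0.907]. Cacna1c, the L-type gene that carries much of the calcium current of mouse beta cells, was at 1.72 RPKM in the transgenic and 2.10 RPKM in the wild-type library (0.818 [0.737, 0.907]). Cacna1a, the P/Q-type gene, was at 0.909 [0.838, 0.986], the N-type gene Cacna1b at 0.901 [0.731, 1.11], and the T-type gene Cacna1h at 0.765 [0.638, 0.916]. The order Cacna1d, Cacna1a, Cacna1c held in both libraries. Cacna1e, the R-type gene, had 6 reads in the transgenic and 8 in the wild-type library.
The 12 measured accessory genes split evenly, with 6 ratios above and 6 below 1. Their median log2 ratio was 0.04, against -0.23 for the pore genes. Apart from Cacnb1, the accessory genes above 1 had under 100 reads and intervals that held 1. The median of all genes with 10 to 99 reads was 0.16, and the part of read depth in this contrast was not tested. Among the accessory genes Cacnb3, a cytoplasmic beta subunit, was the most abundant, at 16.4 RPKM in the transgenic and 22.5 RPKM in the wild-type library (0.729 [0.676, 0.786]). Cacna2d1 was at 0.924 [0.872, 0.980], Cacnb2 at 0.906 [0.809, 1.01] and Cacnb1 at 1.15 [0.988, 1.33]. Cacng4, of a family that also serves glutamate receptors, was at 0.708 [0.582, 0.858]. The called gene was Cacng2 of the same family, with 6 reads in the transgenic and 19 in the wild-type library (0.372 [0.122, 0.970]).

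All 3 measured HCN genes, which encode the hyperpolarisation-activated cation channels, had intervals below 1, and Hcn3 was called lower. Hcn3 (ENSMUSG00000028051, chromosome 3, 89146074 to 89160196, minus strand) had 403 reads and 5.69 RPKM in the transgenic library, against 976 reads and 11.7 RPKM in wild type, a ratio of 0.487 [0.433, 0.548]. It led the family in wild type, with 50.9% of the summed RPKM, against 37.6% in the transgenic library, where Hcn2 led at 6.55 RPKM. The intervals of the 2 genes overlapped in the transgenic library, with Hcn2 at 5.89 to 7.27 RPKM and Hcn3 at 5.15 to 6.27. Hcn2 was at 0.844 [0.735, 0.969] and Hcn4 at 0.830 [0.714, 0.964]. Of the exon bases of Hcn3, 17.1% overlapped Pklr on the other strand, and Pklr was at 0.955 [0.728, 1.25], with 102 reads in the transgenic and 126 in the wild-type library.

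None of the 13 measured TRP genes was called. Trpc1, a subunit of receptor-operated channels, was at 6.02 RPKM in the transgenic and 6.49 RPKM in the wild-type library (0.927 [0.846, 1.02]), and Trpm7, a channel fused to a kinase, at 5.30 and 5.54 RPKM in that order (0.956 [0.879, 1.04]). Trpm4, a calcium-activated channel for monovalent cations, was at 0.800 [0.717, 0.891] and Trpm2, opened by ADP-ribose, at 0.799 [0.633, 1.01]. Trpm3, a channel gated by pregnenolone sulphate in beta cells, was at 1.38 [1.13, 1.70], the 1 TRP gene whose interval lay above 1. Trpc4 was at 0.724 [0.530, 0.984], Trpv2 at 0.722 [0.443, 1.16] and Trpv4 at 0.944 [0.497, 1.77].

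Counted by known use, the channels described for beta cells lay mostly a little below wild type. Of 23 genes listed for beta cell excitation and repolarisation 22 were measured, 2 were called higher (Scn3a and Kcnq1) and none lower. Of the 22, 17 had a ratio below 1, and the median log2 ratio was -0.14. The share below 1 was 49.4% of all measured genes and 57.4% of those with at least 500 reads. Of 15 measured genes best known from nerve and glia, none was higher and 1 was lower (Cacng2), with a median of 0.05. Of 13 best known from exocrine, mural and blood cells, Kcnj2 was higher and Kcnmb1 lower, with a median of 0.24. The medians stand beside 0.01 for all measured genes, 0.16 for those with 10 to 99 reads and -0.04 for those with at least 500. In the transgenic library the 22 beta cell genes held 24207 reads. The 15 nerve and glia genes held 399 there, and the 13 of the last list 600. The part of read depth in these medians was not tested.

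Genes that work with these channels were mostly not called, as were 15289 of all 17709 measured genes. The rule called 7.78% of all measured genes higher and 5.89% lower. Of 22 measured genes of calcium handling, 1 was higher and 1 lower, with a median log2 ratio of -0.08. The mitochondrial sodium-calcium exchanger Slc8b1 had 91 reads in the transgenic library against 61 in wild type (1.76 [1.26, 2.48]), and the release channel Itpr2 had 151 against 280 (0.636 [0.518, 0.778]). Of 23 measured partners of channels, 1 was higher and 2 lower, with a median of 0.05.
Gem, a small GTPase that inhibits voltage-gated calcium channels, had 675 reads and 18.8 RPKM in the transgenic library, against 1251 reads and 29.6 RPKM in wild type, a ratio of 0.636 [0.579, 0.699]. Ank2, an ankyrin that anchors channels and pumps, was at 0.661 [0.599, 0.729], and Dpp10, a partner of A-type potassium channels, at 1.63 [1.38, 1.93]. Of 41 measured chloride, mechanosensitive, lysosomal, mitochondrial and ligand-gated channel genes, 1 was lower and 1 higher, with a median of 0.03. The lysosomal channel gene Mcoln3 had 39 reads in the transgenic library against 105 in wild type (0.438 [0.295, 0.638]), and the ATP-gated channel gene P2rx1 had 66 reads in the transgenic and 14 in the wild-type library, under the 100 reads set for naming (5.56 [3.09, 10.7]).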

How the data were processed

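The authors deposited raw read counts for 54532 genes in each library and the length of each gene model. Per the labels' protocols, 1 microgram of Trizol-extracted total RNA was used for each TruSeq library. No source used here gives the aligner, counter, genome build or strandedness, so overlapping and antisense genes cannot be told apart. Of the 116 measured genes 113 had a deposited length within 1% of the exon union in GENCODE M21 (GRCm38), and coordinates are those of the count table. The authors' deposited table of 108 listed genes gives normalized counts (a signal scale), log2 fold changes and p-values. DESeq2 1.10.1 appears in the submitters' processing notes, which do not say how 1 library a group was tested.

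The 17709 genes that reached 10 reads in the sum of the libraries were kept. Library sizes were scaled by TMM (edgeR 4.0.16, R 4.3.3; factors 1.01 transgenic and 0.987 wild type). A read was worth 0.0586 CPM in the transgenic and 0.0497 CPM in the wild-type library. Intervals were exact Clopper-Pearson on the share of a gene's reads in the transgenic library, and exact Poisson for RPKM (SciPy 1.17.1). Intervals and the floor of 3 reads cover counting error only, since PCR copies are not separate molecules. The steps were tested on simulated data.

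The members, lists and rules were chosen with earlier results of these data known. Named were called genes with at least 100 reads, the 3 highest RPKM of each ion and family, Kcnj11, Cacna1c and Cacna1d, and called genes of the lists outside the set with at least 100 reads. Other genes were named after their values were seen, and some genes the rule names are not reported here. Alternatives were DESeq2 1.42.0 size factors, library totals, TMM without hormone and acinar genes, protein-coding genes only, higher and lower read minimums, other call rules and CPM in place of RPKM. Centring in 10 bins of gene length was chosen after seeing the data. Figures used matplotlib 3.10.9.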

Additional observations from a re-analysis of the deposited data

How the results depend on the processing

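No called channel gene lost its call and none was gained among the 116 under DESeq2 size factors, library totals, TMM without hormone and acinar genes, protein-coding genes only, or centring by gene length. Each of the 3 other scalings multiplied every ratio by 1 common factor. All 49 ratios chosen by rule stayed inside their counting intervals, which is no check of single genes. The median log2 ratio of the set ran from -0.19 with at least 50 reads to -0.07 with at least 1 read. After centring by length it was -0.09, and the median of channel genes with at least 500 reads was -0.19, with 18 of 31 intervals below 1. For all genes with at least 500 reads that median was -0.04, with 35.3% of intervals below 1. Other call rules gave fewer genes by construction: 7 higher (5 potassium) and 10 lower (8 potassium) at 2-fold, and 4 higher (2 potassium) and 8 lower (7 potassium) where the bound nearest 1 also had to pass 1.5-fold. Under that rule and with at least 50 reads, 0 calcium genes were lower. In the partner lists, library totals left 1 of the 2 lower partners and DESeq2 size factors gave 2 lower other channels. Counting without length kept 9 of the 12 highest members by ion. The 56 genes with 10 to 99 reads have wide intervals. No paired analysis was possible because each group had 1 library.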
